A study of Mus musculus with 18 samples.

Results

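NRF2, encoded by Nfe2l2, is the transcription factor that switches on the antioxidant and detoxification genes of the liver, and 10 genes of that system are described here in mouse liver: Nfe2l2, its inhibitor Keap1, and the target genes Srxn1, Txnrd1, Gsr, Gclc, Gclm, Nqo1, Ugdh and G6pdx. The members were chosen by symbol and not by a cut on their values, although earlier results of these data were known. All 10 were found among the 23930 genes of the panel. All 10 also passed the filter on low values (at least 1 CPM in at least 3 libraries), as did 11720 genes in all. In unstressed cells KEAP1 holds NRF2 in the cytoplasm and presents it for degradation. Oxidants and electrophiles modify KEAP1, NRF2 then accumulates in the nucleus, pairs with a small MAF protein and binds antioxidant response elements near its targets. Because much of this control acts on the protein, the transcript of Nfe2l2 is an incomplete measure of the activity of NRF2. Ethanol breakdown in hepatocytes yields reactive oxygen species, which is why this system is often measured in alcohol-fed liver.

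The 18 libraries came from the livers of Yap fl/fl mice, which carry Yap alleles that Cre can delete, with 3 libraries in each of 6 groups. At 8 weeks of age the mice received an adeno-associated virus whose TBG promoter is active in hepatocytes. The overexpression groups received AAV-TBG-YAP-P2A-EGFP (2e+11 genome copies per mouse), the knockout groups AAV-TBG-Cre (5e+10) and the control groups AAV-TBG-GFP (2e+11), so the knockout and control groups differed in the amount of virus as well as in its cargo. Feeding began 2 weeks later with 5 days of acclimation to liquid diet. The ethanol-fed mice had ethanol liquid diet for 4 weeks and then a gavage of ethanol (5 g/kg, 33% v/v), and pair-fed mice had control diet and isocaloric maltose-dextrin. All were killed 9 hours after the gavage. The groups are therefore ethanol-fed overexpression, pair-fed overexpression, ethanol-fed knockout, pair-fed knockout, ethanol-fed control and pair-fed control. The promoter restricts the change in YAP to hepatocytes, whereas the RNA is that of whole liver, in which fewer cells of a type and less RNA per cell cannot be told apart.

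Each library held 4680152 to 5806228 reads, and 1 read was worth 0.172 to 0.214 CPM, the unit used throughout, which scales the reads of a gene to the total of its library. Yap1 measured 106.4 to 144 CPM in ethanol-fed and 57.6 to 214 CPM in pair-fed overexpression livers, 3.34 to 5.08 and 4.18 to 15.1 CPM in ethanol-fed and pair-fed knockout livers, and 51.5 to 66.6 CPM in the 6 control livers. The lowest pair-fed overexpression library, replicate 1 with 57.6 CPM, lay within the control range; leaving it out gave no member call in a comparison with overexpression livers. Xist, the RNA made from the inactive X chromosome of females, exceeded the Y-linked Ddx3y in 5 libraries, namely all 3 pair-fed knockout libraries and pair-fed control replicates 2 and 3. The other 13 libraries, including all 9 of ethanol-fed mice, showed the opposite, so diet and the sex of the mice cannot be told apart in the knockout groups and only in part in the control groups. Only the pair-fed control group held libraries of each kind, so the covariate for these genes used below was estimated within that group alone. Summed markers of 6 hepatocyte genes reached at least 42673 CPM in every library but differed between genotypes. On ethanol they were 44543.5 to 47682 CPM in overexpression, 52735 to 66821 CPM in knockout and 57156 to 72547 CPM in control livers. In pair-fed mice they were 42673 to 49238, 67508 to 80044 and 48622 to 75413 CPM in the same order. The part of this difference in the members' values was not tested.

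NRF2 binds a short element whose core is matched by the letters TGACNNNGC, searched here on both strands of promoter windows from 250 bases before to 50 bases after each RefSeq start site (mouse assembly GRCm38.p6). Windows were held for 8 of the 10 members, not for Gclc and Gsr, and 6 of these 8 contained the letters. The same letters occurred in 12.4% of all 32851 windows of that length and in 14% of the 27025 genes that have one. The matches are shown because NRF2 is known to act through elements of this kind, with the letters searched in capitals and 10 bases on each side.
Nfe2l2 (chr2:75704885-75704913, minus strand, upstream of the gene): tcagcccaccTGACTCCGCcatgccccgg
Srxn1 (chr2:152105542-152105570, minus strand, just downstream of the start): tgtctcactcTGACCTAGCtgcccactgc
Txnrd1 (chr10:82859104-82859132, minus strand, upstream of 1 of its 3 start sites): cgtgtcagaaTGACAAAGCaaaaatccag
Gclm (chr3:122245413-122245441, minus strand, upstream): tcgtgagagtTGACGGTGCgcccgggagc
Ugdh (chr5:65435956-65435984, minus strand, upstream): gcggagcccgTGACTTAGCtggagctgat
Ugdh (chr5:65435918-65435946, plus strand, upstream): ccgaactgtaTGACCACGCcccttgagga
G6pdx (chrX:74428919-74428947, plus strand, upstream): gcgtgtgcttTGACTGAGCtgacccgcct
The windows of Nqo1 and Keap1 did not contain the letters. A match describes the letters and does not show that NRF2 binds there.

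The question put to the ethanol diet was whether the antioxidant genes changed in each genotype. Averaged over the 3 genotypes, 2 of the 10 members were called at an adjusted p under 0.05 (limma on log2(CPM + 1), Benjamini-Hochberg over all 11720 genes). Srxn1, sulfiredoxin, the enzyme that repairs over-oxidised peroxiredoxins, rose by 1.43 ± 0.30 on the log2 scale (SE; 2.69-fold; adjusted p = 0.00263). Gclm, the modifier subunit of the enzyme that makes the glutathione precursor, fell by 0.43 ± 0.15 (adjusted p = 0.0491). Of all genes tested, 20.5% were called in this comparison, 7.21% higher and 13.3% lower, so the members' count of 2 in 10 equals the background share to within 1 gene. That split depended on the scaling, with 845 genes called higher and 1561 lower as deposited and 1283 higher and 1116 lower with TMM factors and 1230 higher and 1251 lower after quantile normalization. Markers of macrophages moved as well, with 7 of 8 called lower, as did those of sinusoidal endothelium, with Lyve1 and Pecam1 called higher and Stab1, Kdr and Clec4g lower among 6. The part of either in the members' values was not tested. The median change of the members was -0.16, beside -0.07 over all genes tested. The averaged changes of the remaining 8 members ran from -0.67 for G6pdx to 0.30 for Nqo1, and none was called.

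Srxn1 had the smallest adjusted p of the 10 members in the averaged response. In overexpression livers it measured 28.5, 63.4 and 45.5 CPM in the ethanol-fed libraries and 11.4, 69.9 and 18.5 CPM in the pair-fed libraries. In knockout livers the values were 30.6, 39.7 and 60.4 CPM with ethanol and 27.8, 10.3 and 8.01 CPM in pair-fed mice. In control livers they were 31.0, 58.7 and 62.5 CPM with ethanol, against 12.8, 16.8 and 8.41 CPM in pair-fed mice. All 9 ethanol-fed libraries lay above the pair-fed median of 12.8 CPM, and 1 of the 9 pair-fed libraries, overexpression replicate 2 with 69.9 CPM, reached the ethanol-fed range and was the highest of all 18. Within a genotype the change was 0.79 ± 0.52 in overexpression livers (adjusted p = 0.529), 1.58 ± 0.52 in knockout livers (adjusted p = 0.0603) and 1.91 ± 0.52 in control livers (adjusted p = 0.0562), so no single genotype passed the threshold although the knockout and control groups did not overlap. Leaving out pair-fed knockout replicate 1 gave 2.09 in knockout livers (adjusted p = 0.0211) and leaving out ethanol-fed control replicate 1 gave 2.22 in control livers (adjusted p = 0.0475). The averaged change was called in all 18 fits that left out 1 library (1.25 to 1.67). It was of similar size but not called when the sex chromosome genes entered the fit as a covariate (1.38, adjusted p = 0.247), or in control and overexpression livers restricted to libraries with Ddx3y above Xist (1.32, adjusted p = 0.116), a comparison chosen after the data had been seen.

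**Figure D1:**
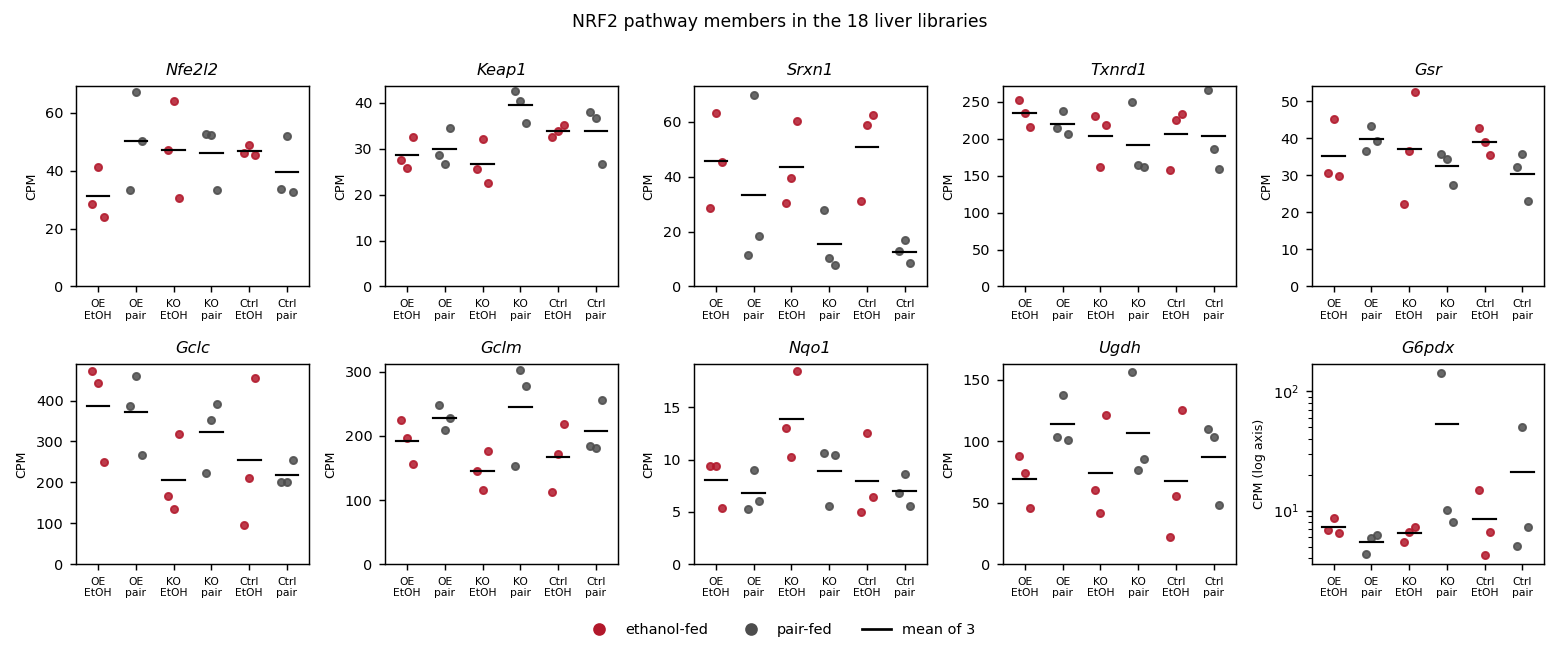
CPM of the 10 members (each panel a gene) in the 18 libraries, with ethanol-fed (red) and pair-fed (grey) groups of overexpression (OE), knockout (KO) and control (Ctrl) livers; points are libraries, bars are means of 3, and the axis of G6pdx is logarithmic. For Srxn1 every ethanol-fed point is at or above 28.5 CPM and 8 of the 9 pair-fed points are below it, and G6pdx stands at 143 CPM in 1 pair-fed knockout library.

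Neither reductase of the thiol systems was called. Txnrd1, cytosolic thioredoxin reductase, measured 252, 235 and 217 CPM in ethanol-fed and 215, 238 and 207 CPM in pair-fed overexpression livers. It measured 231, 162 and 219 CPM in ethanol-fed and 249, 165 and 162 CPM in pair-fed knockout livers, and 157, 226 and 234 CPM in ethanol-fed and 266, 186 and 159 CPM in pair-fed control livers. The groups overlapped in each genotype, and its averaged ethanol change was 0.07 with a 95% interval of -0.19 to 0.33. Gsr, the reductase that returns glutathione to its active form, measured 30.7, 45.3 and 29.97 CPM in ethanol-fed and 36.7, 43.3 and 39.2 CPM in pair-fed overexpression livers. Knockout livers had 22.2, 36.6 and 52.6 CPM with ethanol and 35.8, 34.4 and 27.3 CPM without it, and control livers 42.9, 39.0 and 35.4 CPM with ethanol and 32.4, 35.8 and 23.1 CPM without it. Its averaged ethanol change was 0.10 ± 0.15 (adjusted p = 0.676), and the ranges overlapped in each genotype.

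Glutathione synthesis begins with glutamate-cysteine ligase, whose catalytic subunit is Gclc and whose modifier subunit is Gclm. Gclm measured 225, 197 and 157 CPM in ethanol-fed and 249, 209 and 228 CPM in pair-fed overexpression livers. It measured 145, 116 and 177 CPM in ethanol-fed and 154, 303 and 278 CPM in pair-fed knockout livers. In control livers it measured 112.8, 172 and 218 CPM with ethanol and 185, 180.5 and 257 CPM without it. No ethanol-fed library exceeded the pair-fed median of 228 CPM, yet the groups overlapped in each genotype. The knockout livers had the largest of the 3 ethanol changes in this gene (-0.70 ± 0.26, adjusted p = 0.0926), and without pair-fed knockout replicate 1 it was -1.01 (adjusted p = 0.0187). The averaged call of Gclm lay at the threshold and was lost when any of 13 of the 18 libraries was left out, remaining only without pair-fed control replicate 1, ethanol-fed control replicate 3, pair-fed knockout replicate 1, ethanol-fed knockout replicate 3 or ethanol-fed overexpression replicate 1. Of 11 other processing settings 3 kept it, and the change was -0.31 with the sex chromosome covariate (adjusted p = 0.672) and -0.22 in control and overexpression livers with Ddx3y above Xist (adjusted p = 0.620).

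Gclc spread widely within groups. It measured 471, 442 and 249.9 CPM in ethanol-fed and 388, 459 and 267 CPM in pair-fed overexpression livers. In knockout livers it measured 166, 136 and 318 CPM with ethanol and 222, 353 and 392 CPM without it. In control livers it measured 95.5, 210.3 and 455 CPM with ethanol and 202, 199.8 and 254 CPM without it. The ethanol-fed control libraries alone spanned nearly the whole range of the gene, and its averaged ethanol change was -0.24 ± 0.24 (adjusted p = 0.525). Across the 18 libraries Gclc varied with Gclm (Pearson r = 0.78, and 0.83 once group means were subtracted) and with Ugdh (r = 0.64), which is a description of libraries that share a panel and a total, not a test.

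Neither Ugdh nor Nqo1 was called by diet. Ugdh, which makes the UDP-glucuronic acid used in glucuronidation, measured 88.3, 74.4 and 45.8 CPM in ethanol-fed and 103.2, 137 and 101.02 CPM in pair-fed overexpression livers, where the groups did not overlap (-0.74 ± 0.48, adjusted p = 0.523). Knockout livers had 60.6, 41.2 and 121 CPM with ethanol and 156, 76.9 and 85.7 CPM without it, and control livers 22.3, 55.4 and 125.1 CPM with ethanol and 110.1, 103.1 and 48.2 CPM without it. These groups overlapped. The averaged change was -0.64 ± 0.28 (adjusted p = 0.110), and it was called only without ethanol-fed control replicate 3 (-0.84, adjusted p = 0.0239) or without ethanol-fed knockout replicate 3 (-0.78, adjusted p = 0.0495). Nqo1, the quinone reductase widely used as a readout of NRF2, measured 9.39, 9.39 and 5.34 CPM in ethanol-fed and 5.30, 9.04 and 6.05 CPM in pair-fed overexpression livers. Knockout livers had 13.0, 10.2 and 18.5 CPM with ethanol and 10.6, 5.55 and 10.4 CPM without it, and control livers 4.99, 12.6 and 6.42 CPM with ethanol and 6.83, 8.58 and 5.55 CPM without it. The ranges of Nqo1 overlapped within each genotype, and its averaged change was 0.30 ± 0.19 (adjusted p = 0.278). The 95% interval of that change ran from -0.10 to 0.71.

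Nfe2l2 and Keap1, the factor and its inhibitor, showed no averaged ethanol response past the threshold (-0.12 ± 0.17, adjusted p = 0.638, and -0.20 ± 0.11, adjusted p = 0.199). Nfe2l2 measured 28.5, 41.3 and 23.9 CPM in ethanol-fed and 33.3, 66.95 and 50.1 CPM in pair-fed overexpression livers. In knockout livers it measured 47.1, 64.0 and 30.5 CPM with ethanol and 52.5, 52.3 and 33.4 CPM without it. Control livers had 46.1, 48.9 and 45.5 CPM with ethanol and 33.8, 51.8 and 32.7 CPM without it. Its ethanol change was lowest in overexpression livers (-0.65 ± 0.29, adjusted p = 0.307) and differed from that of control livers by -0.92 ± 0.41 (adjusted p = 0.658), which did not pass the threshold. Keap1 measured 27.4, 25.8 and 32.6 CPM in ethanol-fed and 28.6, 26.6 and 34.5 CPM in pair-fed overexpression livers. Knockout livers had 25.6, 32.1 and 22.5 CPM of Keap1 with ethanol and 42.6, 40.4 and 35.5 CPM without it, and these did not overlap (-0.56 ± 0.19, adjusted p = 0.0637). Control livers had 32.6, 33.8 and 35.2 CPM with ethanol and 38.0, 36.7 and 26.6 CPM without it.

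Within single genotypes, no member was called in the ethanol response of overexpression, knockout or control livers, where 1.15%, 9.9% and 2.7% of all genes were called. With edgeR on the recovered reads 0, 1 (G6pdx) and 1 (Srxn1) members were called. The groups did not overlap for 2 members in overexpression livers (Ugdh and G6pdx, against 22.4% of all genes), 3 in knockout livers (Srxn1, Keap1 and G6pdx, against 28.5%) and 1 in control livers (Srxn1, against 22.1%). The median member change was -0.01 in overexpression, -0.28 in knockout and 0.02 in control livers, beside -0.07, -0.05 and -0.09 over all genes. An unadjusted p under 0.05 was reached by 1 member in overexpression, 4 in knockout and 1 in control livers, against 14.5%, 26.1% and 18.1% of all genes. The knockout comparison also carried a difference in macrophage markers: the 8 Kupffer cell and macrophage markers summed to 155 to 198 CPM in ethanol-fed and 438 to 543 CPM in pair-fed knockout livers, 7 of the 8 were called lower, and their part in the members' values was not tested.

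**Figure D2:**
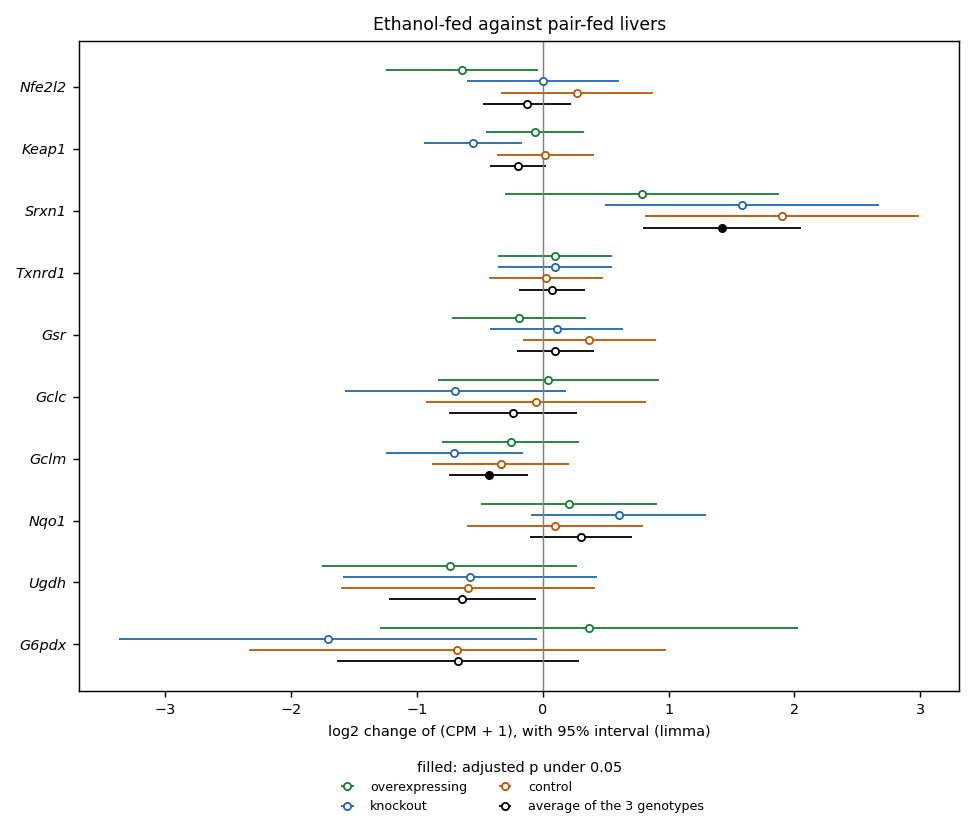
Log2 change of (CPM + 1) between ethanol-fed and pair-fed livers for each member, with the 95% interval, in overexpression (green), knockout (blue) and control (brown) livers and averaged over the 3 genotypes (black); filled points passed an adjusted p under 0.05. The filled points are the averaged changes of Srxn1, at 1.43, and Gclm, at -0.43.

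G6pdx, the X-linked enzyme that opens the pentose phosphate pathway and supplies NADPH to the glutathione and thioredoxin reductases, was set by a pair of libraries. It measured 6.86, 8.66 and 6.54 CPM in ethanol-fed and 4.35, 5.91 and 6.23 CPM in pair-fed overexpression livers. It measured 5.50, 6.68 and 7.25 CPM in ethanol-fed and 143, 10.0 and 8.01 CPM in pair-fed knockout livers, and 14.8, 4.25 and 6.59 CPM in ethanol-fed and 5.08, 50.4 and 7.27 CPM in pair-fed control livers. Pair-fed knockout replicate 1 and pair-fed control replicate 2 stood far above the other 16 libraries. Both are among the 5 libraries with Xist above Ddx3y, whose other 3 members had 7.27 to 10.0 CPM. The ethanol change in knockout livers was -1.71 ± 0.79 (adjusted p = 0.180), the groups did not overlap, and it was -0.42 without pair-fed knockout replicate 1. In overexpression livers it was 0.37 ± 0.79 (adjusted p = 0.887).

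The same libraries stood out in genes of fatty acid synthesis, a comparison made after the values of G6pdx had been seen. Fasn, fatty acid synthase, had 3492 CPM in pair-fed knockout replicate 1 and 2788 CPM in pair-fed control replicate 2, and 614 CPM in the next library. Elovl6, a fatty acid elongase, had 506 and 282 CPM in them and 66.6 CPM in the next, and Pgd, the next NADPH-producing enzyme after G6pdx, had 130.9 and 137.6 CPM and 79.1 CPM in the next. Across the 18 libraries G6pdx varied with Elovl6 (r = 0.95), Fasn (r = 0.88) and Acly (r = 0.88), descriptions that rest largely on those 2 libraries. The paralog G6pd2 had no read in any library.

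**Figure D3:**
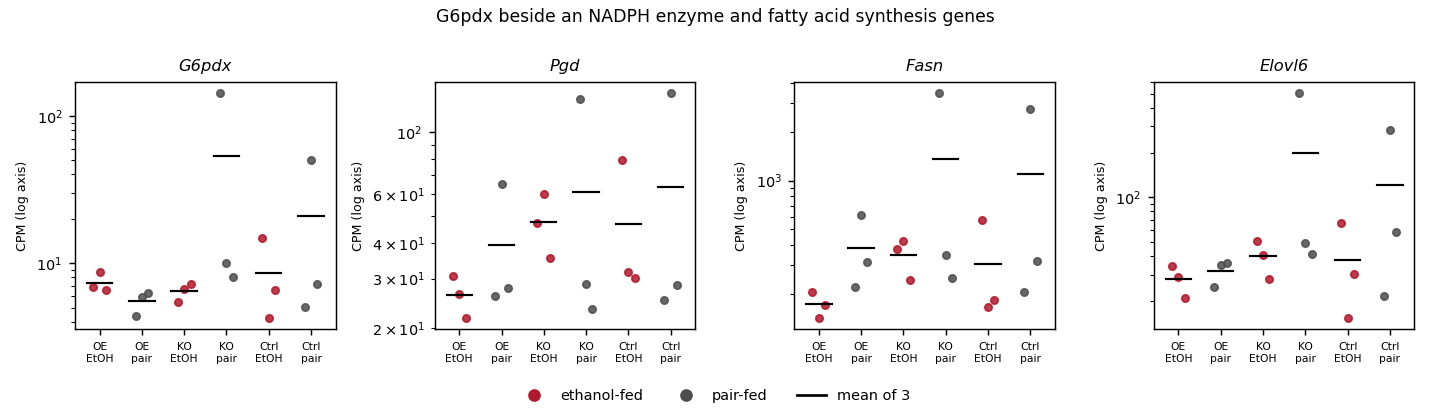
CPM on logarithmic axes of G6pdx, Pgd, Fasn and Elovl6 in the 18 libraries by group, ethanol-fed red and pair-fed grey, with bars at the means of 3. In each panel the 2 highest points are pair-fed knockout replicate 1 and pair-fed control replicate 2, with 143 and 50.4 CPM for G6pdx.

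Whether YAP altered these genes was asked by setting the overexpression and knockout livers against control livers on each diet. No member was called in any of these comparisons. Overexpression against control called 0.102% of all genes in ethanol-fed and 0.145% in pair-fed livers, and knockout against control called 0.0171% in ethanol-fed and 0.00853% in pair-fed livers. The smallest adjusted p of a member was 0.560, for Nqo1 between ethanol-fed knockout and control livers. The 95% intervals of Txnrd1 ran from -0.24 to 0.66 and -0.31 to 0.59 for overexpression in ethanol-fed and pair-fed livers and from -0.46 to 0.44 and -0.53 to 0.37 for knockout, whereas that of G6pdx ran from -1.71 to 1.62 for overexpression in ethanol-fed livers.

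In ethanol-fed livers, groups that did not overlap were found for Nfe2l2 and Keap1 in overexpression against control (2 members, against 15% of all genes) and for Keap1 in knockout against control (1 member, against 13.4%). The Keap1 groups nearly touched. The highest overexpression library had 32.551 CPM and the highest knockout library 32.1 CPM, against 32.602 CPM in the lowest control library. The gap to overexpression is smaller than 1 read (0.172 to 0.214 CPM). Nfe2l2 was 31.2 ± 8.97 CPM in ethanol-fed overexpression and 46.8 ± 1.80 CPM in ethanol-fed control livers (SD, n = 3 each; log2 change -0.60 ± 0.29, adjusted p = 0.566). Keap1 was 28.6 ± 3.53 CPM in overexpression and 26.7 ± 4.90 CPM in knockout livers, against 33.9 ± 1.31 CPM in control livers on the same diet (changes of -0.24 ± 0.19, adjusted p = 0.805, and -0.34 ± 0.19, adjusted p = 0.656). Nqo1 was 13.9 ± 4.22 CPM in ethanol-fed knockout and 7.99 ± 4.02 CPM in ethanol-fed control livers, with overlapping ranges (0.78 ± 0.33, adjusted p = 0.560). In pair-fed livers, Gclc was 371 ± 97.3 CPM in overexpression and 219 ± 30.7 CPM in control livers, and Gsr was 39.8 ± 3.32 and 30.4 ± 6.53 CPM (2 members without overlap, against 13.8% of all genes; changes of 0.74 ± 0.42 and 0.39 ± 0.25, adjusted p = 0.670 and 0.715). No member was free of overlap between pair-fed knockout and control livers (7.06% of all genes). The median member change there was 0.23 beside 0.02 over all genes, and each member had an adjusted p of 0.999. These groups also differed in the amount of virus and in the libraries with Xist above Ddx3y (3 in knockout and 2 in control livers).

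Overexpression and knockout livers on ethanol were compared directly as well, where 1.88% of all genes and 0 members were called. Gclc was 388 ± 120.4 CPM in overexpression and 206 ± 97.5 CPM in knockout livers (log2 change 0.95 ± 0.42, adjusted p = 0.279). Nqo1 had 8.04 ± 2.34 CPM in overexpression and 13.9 ± 4.22 CPM in knockout livers and no overlap (-0.72 ± 0.33, adjusted p = 0.309), and it was the 1 member without overlap, against 21.4% of all genes. The tests of whether the ethanol response differed between overexpression or knockout and control livers called 0 genes of 11720, members included (0% and 0%), with limma and with edgeR. At an unadjusted p under 0.05 they held 847 (7.23%) and 666 (5.68%) genes, and 1 member each, Nfe2l2 for overexpression and Keap1 for knockout (-0.58 ± 0.26, adjusted p = 0.864). Control libraries entered all the comparisons against control, so these values are not independent of each other.

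**Figure D4:**
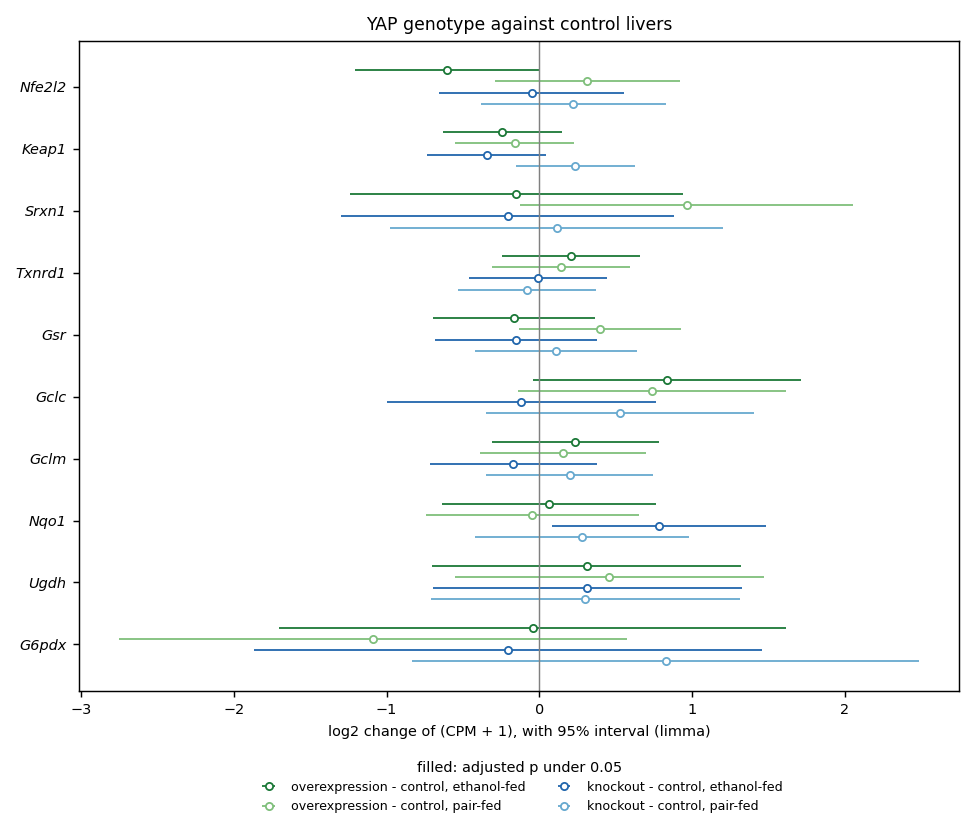
Log2 change of (CPM + 1) between YAP genotypes and control livers for each member, with the 95% interval, for overexpression (green) and knockout (blue), darker on the ethanol diet and lighter in pair-fed livers. Every point is open, since no member passed an adjusted p under 0.05, and the widest intervals are those of G6pdx.

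Further genes of the same system were called with ethanol. Of 79 genes listed by function in 8 groups, with earlier results of these data known, 64 were tested and 22 were called in the averaged ethanol response, 11 higher and 11 lower (34.4%, against 20.5% of all genes). With TMM factors or edgeR the split was 16 higher and 8 lower, and the calls of Gstt2, Prdx2 and Taldo1 were lost. The median change was -0.07, the same as over all genes to 2 decimals. All 22 calls were lost when the sex chromosome genes entered the fit as a covariate, where 0.734% of all genes were called. That covariate was estimated from the pair-fed control libraries alone, so the fit cannot tell lost precision from a difference by sex. In control and overexpression livers with Ddx3y above Xist, where 2.3% of all genes were called, 3 remained: Hmox1, Mafg and Txnrd2.

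Of the 11 rises, 8 were in the lists of glutathione S-transferases (12 tested), glutathione synthesis, use and transport (6) and conjugation and export (12). Over all genes tested, 7.21% were called higher. Among glutathione S-transferases, which attach glutathione to electrophiles, Gstm1 (1.05 ± 0.21), Gstm3 (2.01 ± 0.42) and Gstm4 (0.98 ± 0.26) rose, and Gstt2 (-0.43 ± 0.14) and Gstz1 (-0.46 ± 0.11) fell, among 12 tested. The call of Gstt2 was lost in 6 of 11 other settings and on leaving out any of 12 of the 18 libraries. Gstm3 was 64.5 ± 11.6 CPM in ethanol-fed and 61.8 ± 78.3 CPM in pair-fed overexpression livers, 265 ± 72.7 and 41.6 ± 19.4 CPM in ethanol-fed and pair-fed knockout livers, and 133 ± 99.1 and 21.6 ± 14.4 CPM in ethanol-fed and pair-fed control livers. The Gstm genes are close copies of each other, so that reads may be shared between their amplicons and their separate values are uncertain. Gss, glutathione synthetase (0.92 ± 0.18), and Glrx, glutaredoxin (0.36 ± 0.11), rose among 6 genes of glutathione synthesis, use and transport. The averaged rises were not all shared by each genotype. Mean Glrx was 135 and 90.3 CPM in ethanol-fed and pair-fed overexpression livers, 116.3 and 116.4 CPM in knockout and 192 and 136 CPM in control livers. The conjugation and export list had 3 rises and no fall among 12: Abcc4, an exporter of conjugates (1.44 ± 0.31), Cbr3, a carbonyl reductase (1.05 ± 0.32), and Ephx1, epoxide hydrolase (0.88 ± 0.19). Mean Ephx1 was 1255 and 1317 CPM in ethanol-fed and pair-fed overexpression livers, 1506 and 469 CPM in knockout and 1364 and 661 CPM in control livers. Cbr3 was low, with 0.191 to 1.46 CPM in pair-fed control livers. Its call was lost in 5 of 11 other settings and on leaving out any of 6 of the 18 libraries. With the restriction to libraries with Ddx3y above Xist, Gstm3 was 1.73, Abcc4 1.63 and Gss 0.66, whereas Ephx1 was 0.17, all with adjusted p above 0.05.

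Beside 13.3% of all genes called lower, 3 of 4 superoxide and hydrogen peroxide enzymes and 3 of 10 thioredoxin, peroxiredoxin and sestrin genes fell. Cat (-0.58 ± 0.15), Sod2 (-0.44 ± 0.10) and Sod3 (-0.71 ± 0.19) fell in the first list, and Prdx2 (-0.37 ± 0.09), Prdx6 (-0.55 ± 0.10) and the mitochondrial reductase Txnrd2 (-0.70 ± 0.13) fell in the second. Of the NADPH-producing enzymes, H6pd rose (0.44 ± 0.12) and Idh1 fell (-0.85 ± 0.14), while Pgd (-0.18 ± 0.35) and Me1 (-0.15 ± 0.27) were not called. Taldo1, kept in the same list, is a pentose phosphate enzyme that makes no NADPH itself. It fell (-0.30 ± 0.10), a call lost on leaving out any of 11 of the 18 libraries. Gsk3b, a kinase that promotes NRF2 turnover, rose (0.39 ± 0.12), and Mafg, a small MAF partner of NRF2, fell (-0.85 ± 0.13). Mean Gsk3b was 32.1 and 33.9 CPM in ethanol-fed and pair-fed overexpression livers, 37.2 and 22.3 CPM in knockout and 39.1 and 26.7 CPM in control livers. Mafg was 27.2 ± 6.70 CPM in ethanol-fed and 44.2 ± 10.3 CPM in pair-fed overexpression livers, 23.8 ± 2.32 and 43.3 ± 12.7 CPM in ethanol-fed and pair-fed knockout livers, and 25.4 ± 2.88 and 54.1 ± 6.42 CPM in ethanol-fed and pair-fed control livers. The other small MAF genes, Maff (0.34 ± 0.36) and Mafk (0.14 ± 0.15), were not called.

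**Figure D5:**
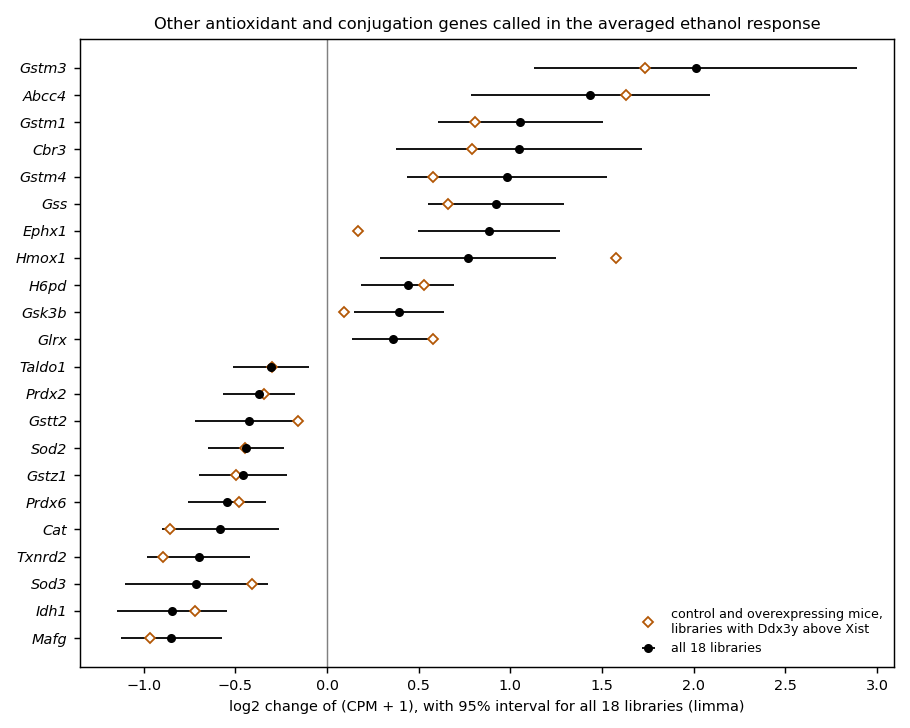
Averaged log2 ethanol change of (CPM + 1), with the 95% interval, for the 22 listed genes called over all 18 libraries (black), and the change of the same genes in control and overexpression livers with Ddx3y above Xist (open diamonds). Gstm3 is highest at 2.01 and Mafg lowest at -0.85, and the diamond of Ephx1 lies at 0.17 against 0.88 over all libraries.

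Genotype entered these lists through a few genes. Hmox1, heme oxygenase and a known NRF2 target, measured 96.2, 183 and 349.8 CPM in ethanol-fed control livers and 24.5, 39.8 and 35.8 CPM in pair-fed control livers, and rose by 2.45 ± 0.40 (adjusted p = 0.00336). Pair-fed knockout livers had 57.7, 41.5 and 31.7 CPM of Hmox1 and pair-fed overexpression livers 34.3, 64.2 and 24.9 CPM. In these genotypes the ethanol-fed and pair-fed ranges of Hmox1 overlapped, so its averaged call rests on control livers. In ethanol-fed knockout livers it measured 50.4, 22.6 and 25.6 CPM, and it was lower than in ethanol-fed control livers by -2.54 ± 0.40 (adjusted p = 0.0241). That call was lost in 4 of 12 other settings (no filter, the replicate block, the barcode block and the compared libraries alone) and without ethanol-fed control replicate 2 or 3 or ethanol-fed knockout replicate 2. Overexpression livers on ethanol had 41.2, 52.5 and 47.9 CPM, a change of -1.94 ± 0.40 against ethanol-fed control livers (adjusted p = 0.0728) that was called with edgeR (adjusted p = 0.0474) and without ethanol-fed control replicate 1. Set directly against each other, ethanol-fed overexpression and knockout livers differed in Hmox1 by 0.59 ± 0.40 (adjusted p = 0.519). The difference of its ethanol response between knockout and control livers was -2.90 ± 0.56 (adjusted p = 0.662) and between overexpression and control livers -2.16 ± 0.56 (adjusted p = 0.256), so neither difference was called with all libraries, and the first was called without ethanol-fed control replicate 1.

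Against ethanol-fed knockout livers, ethanol-fed overexpression livers had more Akr1b8, an aldo-keto reductase (1.35 ± 0.29, adjusted p = 0.0209). They had less Slc3a2, a subunit of the cystine transporter and of other amino acid transporters (-1.23 ± 0.25, adjusted p = 0.0141), and Sesn2, a sestrin (-1.53 ± 0.38, adjusted p = 0.0426). Slc7a11, the other subunit of the cystine transporter, did not pass the filter on low values. Slc3a2 was 36.1 ± 3.84 CPM in overexpression and 91.2 ± 35.4 CPM in knockout livers. The list holds 1 higher and 2 lower of 64 tested, against 1.88% of all genes. Txnip, an inhibitor of thioredoxin, fell in overexpression livers with ethanol (-1.55 ± 0.37, adjusted p = 0.0460), at 63.0 ± 16.0 CPM in ethanol-fed and 184.6 ± 35.3 CPM in pair-fed livers. The call of Txnip was lost in 5 of 12 other settings and on leaving out any of the 6 libraries. The call of Sesn2 was lost in 7 of 12 settings and without overexpression replicate 2 or 3 or knockout replicate 1 or 2 on ethanol. That of Akr1b8 was lost in 2 settings and without overexpression replicate 2 or 3 or knockout replicate 2 or 3, and that of Slc3a2 in 0 settings and without overexpression replicate 2 or knockout replicate 1 or 2. In single genotypes, 0 listed genes rose and 1 fell in overexpression livers with ethanol (1.15% of all genes called), 6 rose and 4 fell in knockout livers (9.9%), and 2 rose and 2 fell in control livers (2.7%). In knockout livers the counts were 8 and 3 with TMM factors and 0 and 0 with the sex chromosome covariate, where 0% of all genes were called. The ethanol call of Sod2 in knockout livers was lost on leaving out any of the 6 libraries, and that of Slc3a2 for 5 of the 6. In control livers the calls of H6pd and Txnrd2 were lost on leaving out any of the 6. With the sex chromosome covariate the control livers kept Hmox1 alone, where 0.196% of all genes were called.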

How the data were processed

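Liver RNA of 18 libraries was read with a targeted panel, Ion AmpliSeq, of 1 amplicon per gene, per the labels. The authors deposited a series table of CPM (reads scaled to each library total), and per-library files of log2(RPM + 1) values made with ampliSeqRNA 5.10.1.2, per the file headers; both hold the same values. For the aligner and the build, the entry is "not given in the sources used here". Multiplied back by library totals, 100% of the deposited CPM values came within 0.02 of an integer, which gave reads for the count test. Levels of different genes are not compared, because amplicons differ.

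The filter of 1 CPM in 3 or more libraries left 11720 genes. limma 3.58.1 (trend, R 4.3.3) fitted 6 group means to log2(CPM + 1) of the 18 libraries, two-sided, with Benjamini-Hochberg adjustment within each of 11 contrasts and calls at an adjusted p under 0.05. Whether libraries are separate animals is not stated in the labels; p-values measure the spread between libraries. Alternatives were edgeR 4.0.16 (quasi-likelihood, on recovered reads), filters of 0 and 10 CPM, pseudocounts of 0.1 and 10, TMM, quantile normalization, a replicate block, a barcode block, a sex chromosome term and leaving out libraries. The pipeline was tested on simulated data. All members are named. Of each list, the called genes were named, plus the 2 with the smallest p in the ethanol responses and on the ethanol diet. The members and lists were chosen with earlier results of these data known. Promoter windows came from RefSeq.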

Additional observations from a re-analysis of the deposited data

Results flagged for a closer look

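The ethanol change of G6pdx ran in opposite directions in a pair of genotypes. It was -1.71 ± 0.79 in knockout livers (limma, adjusted p = 0.180), where every ethanol-fed library lay below every pair-fed library. In overexpression livers it was 0.37 ± 0.79 (adjusted p = 0.887), and every ethanol-fed library lay above every pair-fed library. That separation was narrow, with 6.545 CPM in the lowest ethanol-fed and 6.234 CPM in the highest pair-fed library, where 1 read was worth 0.172 to 0.214 CPM. The difference between these changes was not tested. The knockout value rests on pair-fed knockout replicate 1 (143 CPM) and was -0.42 without it.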

How the results depend on the processing

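The number of members called is 0 in the ethanol responses of control and knockout livers and 2 in the averaged response. In control livers it was 1 (Srxn1) with TMM factors, quantile normalization, edgeR or a fit to the compared libraries alone, and 0 to 1 on leaving out a library. In knockout livers it was 1 with a filter of 10 CPM (Keap1), TMM (Srxn1), edgeR (G6pdx) or the compared libraries alone (Srxn1), 2 with quantile normalization (Keap1, Srxn1), and 0 to 2 on leaving out a library. The averaged count was 1 (Srxn1) with no filter, pseudocounts of 0.1 or 10, TMM, quantile normalization or edgeR, 0 with the sex chromosome covariate and 0 in control and overexpression livers with Ddx3y above Xist, and 1 to 3 on leaving out a library. The replicate block left it at 2 and changed no member's call. Correlations of deviations from the group means ran from -0.27 to 0.28, median 0.03, between libraries of the same replicate number. Between libraries of other numbers they ran from -0.40 to 0.46, median -0.01. With 3 libraries a group these values cannot show whether the libraries were paired. The barcode block follows the replicate number except in ethanol-fed control replicate 1, so the replicate and barcode blocks are nearly the same setting. The other 8 comparisons held 0 members in each setting run. The change of G6pdx in knockout livers reversed to 0.054 with the sex chromosome covariate. That covariate was estimated from the pair-fed control libraries alone, where G6pdx measured 5.08, 50.4 and 7.27 CPM in replicates 1, 2 and 3. The value of 0.054 therefore carries the difference of replicate 1 from replicates 2 and 3, whose cause was not tested. Across settings, all-gene counts moved by over 1.5 times as follows. With the sex covariate they were 23 in control, 0 in knockout, 86 averaged and 1 for pair-fed overexpression against control. Without libraries with Xist above Ddx3y they were 21 in control livers, 5 for ethanol-fed knockout and 22 for ethanol-fed overexpression against control, and 2 for pair-fed overexpression against control, and the restricted averaged fit gave 269. With the compared libraries alone they were 140 in control, 753 in knockout and 267 in overexpression livers, 4 for ethanol-fed knockout and 5 for pair-fed overexpression against control. No filter gave 57 in overexpression livers and 1 for ethanol-fed overexpression against control, for which quantile normalization and the replicate block gave 4 and the barcode block 2, and edgeR gave 29 for pair-fed overexpression against control. Counts of 1 or 2 for knockout against control became 0, 1 or 2 in 6 further fits. The interaction with overexpression, 0 as fitted, held 1 to 3 genes in 4 of these settings, none of them a member. On leaving out 1 library, the all-gene counts ran from 17 (without ethanol-fed overexpression replicate 2) to 149 in overexpression, from 621 (without pair-fed knockout replicate 2) to 1209 in knockout and from 49 (without ethanol-fed control replicate 2) to 281 in control livers. They ran from 83 (without ethanol-fed overexpression replicate 3) to 271 for overexpression against knockout. Against control they ran from 5 (without pair-fed control replicate 2) to 86 (without pair-fed control replicate 1) for pair-fed and from 0 (without ethanol-fed control replicate 2) to 10 for ethanol-fed overexpression, and from 1 to 36 (without ethanol-fed knockout replicate 3) for ethanol-fed knockout. They were 0 to 27 (without pair-fed control replicate 1) for the interaction with overexpression, 0 to 3 for that with knockout, and 1952 to 2499 averaged. Fits to the compared libraries alone were not run for the averaged response, nor was omission of Xist libraries where it would empty the pair-fed knockout group.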

Other observations

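The genes most like the 8 targets, by Pearson r with their averaged z-scored levels over the 18 libraries among 8447 candidates, were Entpd5 (r = 0.79), Cds2 (0.78), BC004004 (0.76), Gsta3 (0.74), Fam149a (0.73), S100a16 (0.73), Nqo2 (0.73) and Mocos (0.72). Gsta3, a glutathione S-transferase, and Nqo2, a quinone reductase, belong to families of the detoxification system. With group means subtracted, r was 0.74 to 0.89 for these 8, so they varied with the targets between libraries of the same group. These are descriptions of libraries that share a panel and a total.

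Ethanol-fed control replicate 1 was the lowest of the 18 libraries for 5 members: Nqo1, Gclc, Gclm, Txnrd1 and Ugdh. Pair-fed overexpression replicate 2, which had the highest Srxn1, also had more Gstm3 (151.8 CPM) than the other 2 libraries of its group (9.85 and 23.7 CPM).

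Of the listed genes named for a small p, Blvrb, Gstm6 and Mgst1 had averaged ethanol changes of 0.10 ± 0.14, -0.24 ± 0.13 and 0.14 ± 0.15 on the log2 scale, and none was called.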
